A study of Mus musculus with 47 samples.

Results

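Hepatic mRNA of 10 genes of the Cyp2c family was followed across sex, Pxr genotype and antibiotic treatment: Cyp2c55, Cyp2c65, Cyp2c29, Cyp2c38, Cyp2c39, Cyp2c40, Cyp2c69, Cyp2c37, Cyp2c54 and Cyp2c50. They were chosen by name, so that every probe for a gene whose name in the array files was one of these 10 was taken, whatever its signal. This gave 12 probes, a pair each for Cyp2c55 and Cyp2c50 and 1 for each of the other 8 genes. The array held 56605 probes for genes, and 21877 genes, these 10 among them, had a probe bright enough to be tested.

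The study asked how PXR, a nuclear receptor that senses foreign compounds, and gut bacteria together shape the liver transcriptome. Total liver RNA of 47 mice was hybridized to 1-color arrays, 1 array per mouse, in 8 groups: male and female, Pxr+/+ and Pxr-/-, with plain drinking water (Cont) or with antibiotics in it (ATB). Each group held 6 mice, apart from the Pxr-/- Cont males, with 5. The ATB water held ampicillin at 1 g/L, neomycin at 1 g/L and vancomycin at 0.5 g/L and was given for 2 weeks to adult mice, 6 months old per the study's methods. Both genotypes were littermates born to Pxr+/- dams on a C57BL/6J background. They were kept apart by sex and genotype once weaned and genotyped, and were allocated to groups at 5 weeks of age. All were killed at ZT6, in the light phase. The Pxr-/- allele is carried by every tissue, so its absence is not limited to hepatocytes. Each group lived in 2 cages, and the cage of a mouse is not in the labels, so mice that shared a cage could not be kept together in a model. Slides numbered 6 in all and were washed in 3 batches. Every group had 1 array on each of them, except that slide 1 held no Pxr-/- Cont male.

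CYP2C enzymes are monooxygenases of the endoplasmic reticulum that carry a heme and take electrons from cytochrome P450 reductase. They oxidize drugs, steroids and fatty acids, and several of them turn arachidonic acid into epoxyeicosatrienoic acids, which act on vessels and on inflammation. In the liver of rodents many Cyp2c genes differ between the sexes, a pattern set by growth hormone secretion, and several respond to foreign compounds through PXR and its relative CAR, which pair with RXR on DNA.

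The probes are 60 bases long, and which gene each of them can report rests on their letters, since relatives in this family differ by few bases. Probes of 5 genes that differed by genotype or sex are shown here, 5′ to 3′, with their mouse mm9 coordinates as the array files give them. For the brighter Cyp2c55 probe and the Cyp2c69 probe the first 30 bases are shown. Capitals mark a run of 10 bases that the brighter Cyp2c55 probe shares with the Cyp2c38 probe. The Cyp2c69 probe shares another run of 10 bases with that Cyp2c55 probe, and no other Cyp2c probe shares a longer one with it.
Cyp2c55, brighter probe (chr19:39116674-39116733, + strand): TTCATTCCTCgttaaagcagaacacactgg
Cyp2c55, dimmer probe (chr19:39110063-39110122, + strand): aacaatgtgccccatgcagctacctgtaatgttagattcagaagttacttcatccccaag
Cyp2c38 (chr19:39465415-39465474, - strand): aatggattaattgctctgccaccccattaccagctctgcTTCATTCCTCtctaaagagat
Cyp2c29 (chr19:39403642-39403701, + strand): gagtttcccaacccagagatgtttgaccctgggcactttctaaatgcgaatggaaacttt
Cyp2c40 (chr19:39861388-39877026, - strand, across an intron): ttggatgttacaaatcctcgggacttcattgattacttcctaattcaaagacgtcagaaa
Cyp2c69 (chr19:39917304-39917363, - strand): aagatgaggaaagcttctgctatgctgttt
Outside the capitals the Cyp2c55 and Cyp2c38 probes have no longer run in common with each other, and the longest run shared by any pair of the 12 probes was 12 bases, between Cyp2c37 and Cyp2c50. Probes were compared only with each other and not with the transcripts of relatives. A short shared run therefore does not show that a probe reports a single gene. For 3 of the 12 probes the array files list transcripts of another gene as well. The Cyp2c40 probe is also listed for Cyp2c68, the Cyp2c69 probe for Cyp2c40, Cyp2c67 and Cyp2c68, and the Cyp2c37 probe for Cyp2c50. The values under these 3 names are therefore uncertain as values of a single gene, and Cyp2c40 and Cyp2c69 are given side by side.

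Each value given for a mouse is a log2 normalized signal, the log2 of the median spot brightness after removal of the wash batch effect and normalization. A difference between groups is a log2 difference with its 95% confidence interval (CI), and a gene was called when the adjusted p of limma was 0.05 or less and the fold change above 1.2. Between 31086 and 34476 probes were well above background on an array, and the number of arrays limits the precision. Hepatocyte markers were bright in all groups, with the summed level of the 10 markers between 20.67 and 20.97 over all mice. Nr1i2, the gene that encodes PXR, has 1 probe, and the sources used here do not say whether it lies in the deleted part, so it checks nothing about the allele. Its signal in Cont males was 11.24, 11.68 and 11.98 (lowest, median and highest) in Pxr+/+ and 11.07, 11.36 and 11.73 in Pxr-/- mice. In Cont females it was 11.46, 12.03 and 12.28 in Pxr+/+ and 11.37, 11.72 and 11.89 in Pxr-/- mice. In ATB males it was 11.42, 11.59 and 12.10 against 10.37, 11.15 and 11.47, and in ATB females 11.56, 11.99 and 12.41 against 10.98, 11.58 and 11.82. The genotypes overlapped in all 4 pairs and none was called.

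Cyp2c55, which oxidizes arachidonic acid and is best known from the colon, was the member with the largest genotype difference. Its mRNA was higher in Pxr-/- than in Pxr+/+ mice in both sexes, with and without ATB, by 5.14-fold to 10.3-fold. Over the brighter probe, Cont males had 7.58, 8.21 and 8.49 (lowest, median and highest) in Pxr+/+ and 10.44, 10.47 and 10.59 in Pxr-/- mice. Cont females had 6.43, 7.95 and 8.16 in Pxr+/+ and 9.14, 10.25 and 10.67 in Pxr-/- mice. The lowest Pxr-/- mouse thus stood above the highest Pxr+/+ mouse in both sexes, and the Pxr-/- Cont males lay within a far narrower range than any Pxr+/+ group. With ATB, males had 6.77, 7.04 and 7.46 in Pxr+/+ and 10.06, 10.49 and 10.70 in Pxr-/- mice, and females 6.23, 7.54 and 7.84 in Pxr+/+ and 9.85, 10.36 and 10.77 in Pxr-/- mice. Again no pair of groups overlapped. The difference was 2.36 (CI 1.83 to 2.89, adjusted p = 9.16e-08) in Cont males and 2.43 (CI 1.93 to 2.93, adjusted p = 3.45e-08) in Cont females. It was 3.37 (CI 2.87 to 3.87, adjusted p = 4.45e-13) in ATB males and 3.03 (CI 2.53 to 3.53, adjusted p = 3.33e-11) in ATB females. Cyp2c55 was higher in Pxr-/- mice on every slide that held both genotypes, 5 of 5 for Cont males and 6 of 6 for the other pairs. The dimmer probe, which lies in another part of the transcript, gave 2.15, 1.78, 2.74 and 2.23 in the same order, each called and with no overlap between genotypes.

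**Figure D1:**
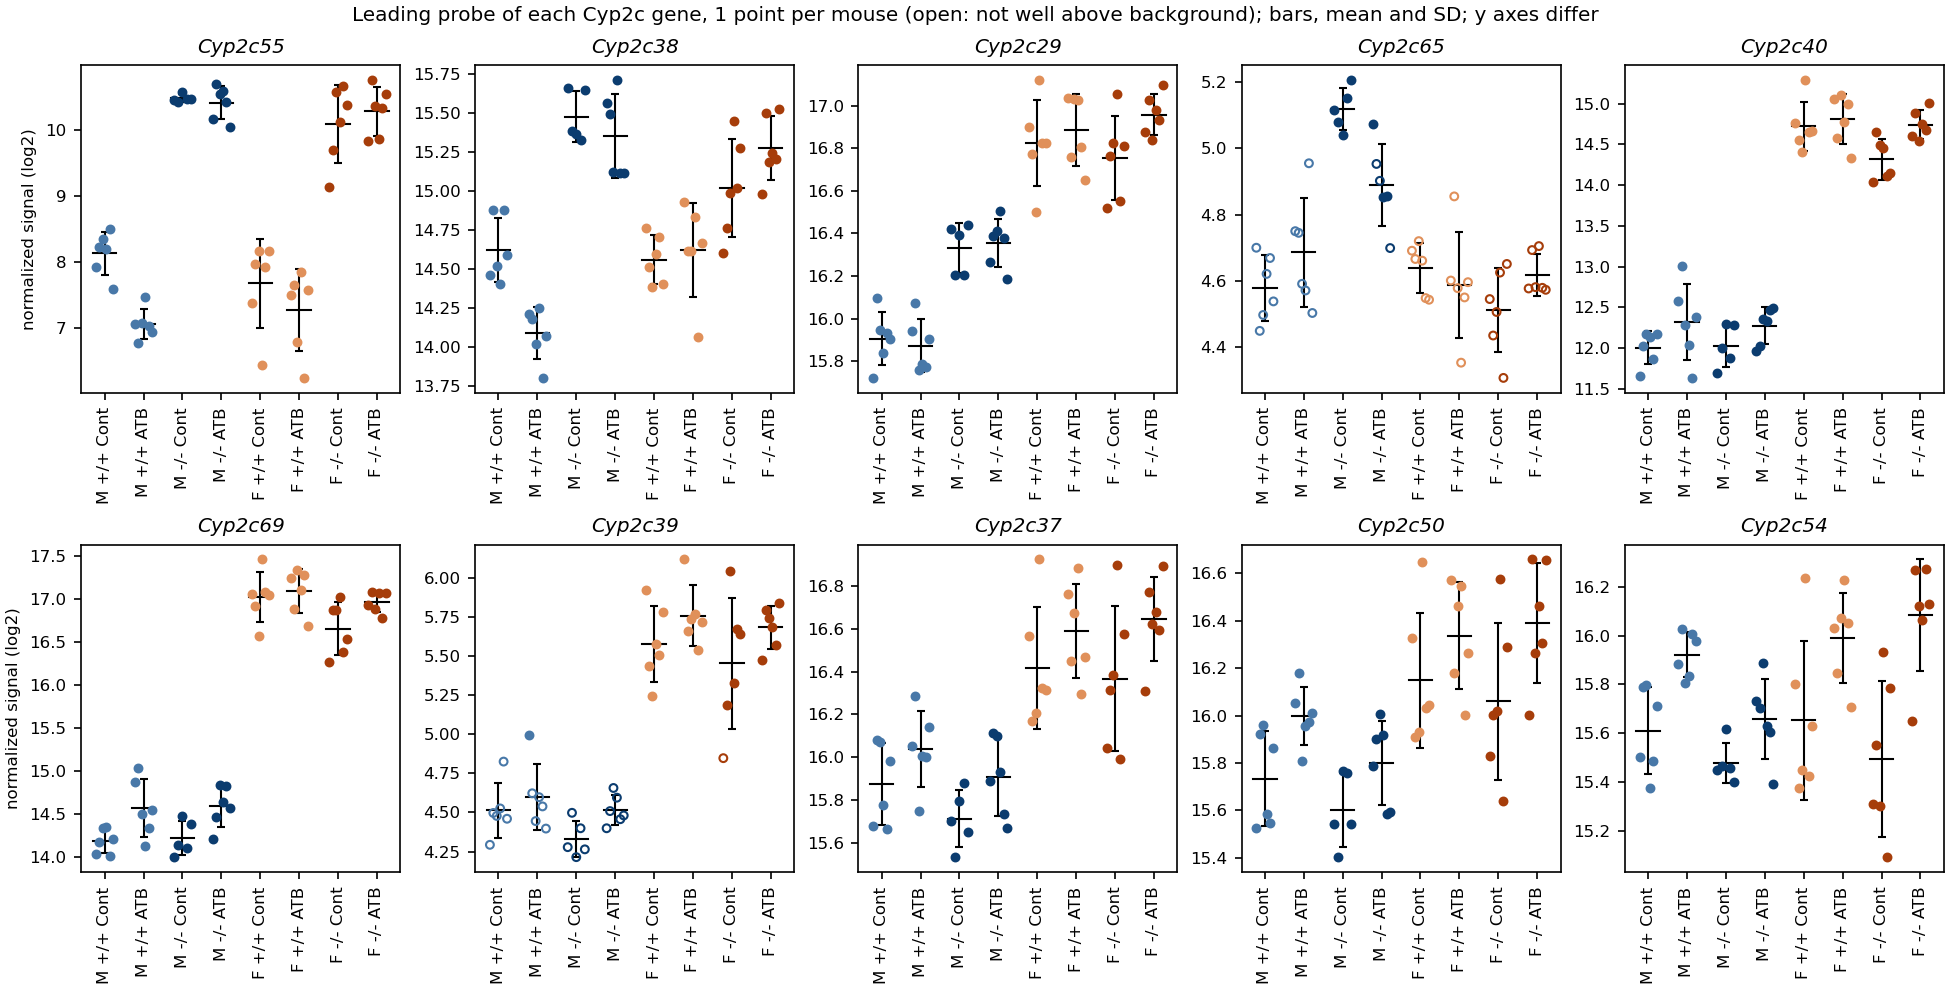
Log2 normalized signal (y axis, a separate scale for each panel) of the 10 Cyp2c genes, brighter probe where there is a pair, in each of the 8 groups (x axis). Each point is 1 mouse, an open point was not well above background, and bars give the mean and SD. Cyp2c55 lies at 9.14 or above in all Pxr-/- mice and at 8.49 or below in all Pxr+/+ mice, while Cyp2c40 and Cyp2c69 separate by sex.

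In Cont males, 3 members that were measured in both genotypes were called higher in Pxr-/- mice (Cyp2c55, Cyp2c38 and Cyp2c29) and 0 lower, where 0.16% of all genes tested were called higher and 0.032% lower. Cyp2c65 was called as well, but it passed the brightness filter only through the Pxr-/- Cont males and is not counted with them. In Cont females 2 were called higher (Cyp2c55 and Cyp2c38), against 0.238% of all genes, and 0 lower, against 3.85%. In ATB males 3 were called higher (Cyp2c55, Cyp2c38 and Cyp2c29), against 0.338%, and 0 lower, against 0.846%. In ATB females 2 were called higher (Cyp2c55 and Cyp2c38), against 0.178%, and 0 lower, against 0.0503%. The shares of all genes depend on the scaling: with quantile normalization of all arrays 0.571% were called higher and 0.768% lower in Cont females, and 0.727% and 0.155% in ATB males. At an unadjusted p under 0.05 in any probe of a gene, the counts were 4, 4, 6 and 2 of 10 members in either direction. Cyp2c65, left out of the calls above, is included in these counts. The shares of all probes, counted by probe and not by gene, were 4.85%, 21%, 23% and 4.95%. The median difference of the members was 0.03, -0.11, -0.01 and 0.06 in these 4 pairs, next to -0.04, -0.11, -0.13 and 0.01 for all probes tested.

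Cyp2c38, an arachidonic acid epoxygenase, was higher in Pxr-/- mice in all 4 pairs, by less than Cyp2c55. Cont males had 14.40, 14.55 and 14.88 (lowest, median and highest) in Pxr+/+ and 15.32, 15.38 and 15.66 in Pxr-/- mice. ATB males had 13.80, 14.13 and 14.25 in Pxr+/+ and 15.11, 15.31 and 15.71 in Pxr-/- mice, so the genotypes did not overlap in males. Cont females had 14.38, 14.55 and 14.76 in Pxr+/+ and 14.60 to 15.45 (mean 15.02) in Pxr-/- mice, which overlapped, and ATB females had 14.06, 14.64 and 14.93 against 14.98, 15.22 and 15.53, which did not. The difference was 0.85 (CI 0.57 to 1.14, adjusted p = 0.000529) in Cont males, 0.46 (CI 0.19 to 0.73, adjusted p = 0.0489) in Cont females, 1.27 (CI 1.00 to 1.54, adjusted p = 1.84e-08) in ATB males and 0.65 (CI 0.38 to 0.93, adjusted p = 0.0171) in ATB females. The call in Cont females was lost when any of 9 mice was left out (adjusted p between 0.0633 and 0.113), and that in ATB females when any of 3 was (0.0694 to 0.120).

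Cyp2c29, also an epoxygenase, was higher in Pxr-/- males and was not called in females. Cont males had 15.72, 15.92 and 16.10 (lowest, median and highest) in Pxr+/+ and 16.21, 16.39 and 16.44 in Pxr-/- mice, and ATB males had 15.76, 15.85 and 16.07 against 16.18, 16.38 and 16.51. All Pxr-/- males thus lay above all Pxr+/+ males with the same water. Females lay between 16.50 and 17.12 in the 4 groups, with the genotypes overlapping. The difference was 0.43 (CI 0.23 to 0.62, adjusted p = 0.0399) in Cont males and 0.48 (CI 0.30 to 0.67, adjusted p = 0.00211) in ATB males, and -0.07 (CI -0.25 to 0.11) and 0.07 (CI -0.11 to 0.26) in Cont and ATB females. In Cont males the call was lost when any of 8 mice was left out (adjusted p between 0.0690 and 0.173). It was also lost with no filter on dim probes (adjusted p of limma 0.0567) and without the wash batch (0.178). A fit on only the 2 groups compared ended it too (0.212). The difference between the sexes in this genotype effect was 0.50 in Cont (CI 0.23 to 0.76, unadjusted p = 0.000498, adjusted p = 0.754) and 0.41 in ATB mice (CI 0.15 to 0.67, adjusted p = 0.486), so it did not pass the test over all genes.

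Cyp2c65, known from the stomach and intestine, was dim on these arrays. It was well above background in 5 of 5 Pxr-/- Cont males, in 3 of 6 Pxr-/- ATB males, and in 0 mice of the other 6 groups. It was tested at all only because of the Pxr-/- Cont males, so its calls are a description of those mice and support nothing further. Their signals of 5.04, 5.12 and 5.21 (lowest, median and highest) were at least 1.38-fold above Pxr+/+ Cont males (adjusted p = 7.96e-05) and at least 1.43-fold above Pxr-/- Cont females (adjusted p = 1.93e-07). These bounds set the group mean against the lowest signal that counted as well above background on the arrays of the other group, or the probe's own signal where that was higher. It was also the 1 member whose genotype effect the fit called different between the sexes in Cont mice, where 0.0229% of all genes were called. Since 3 of the 4 groups in that difference had 0 mice above background, it has no measured size and is not used.

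**Figure D2:**
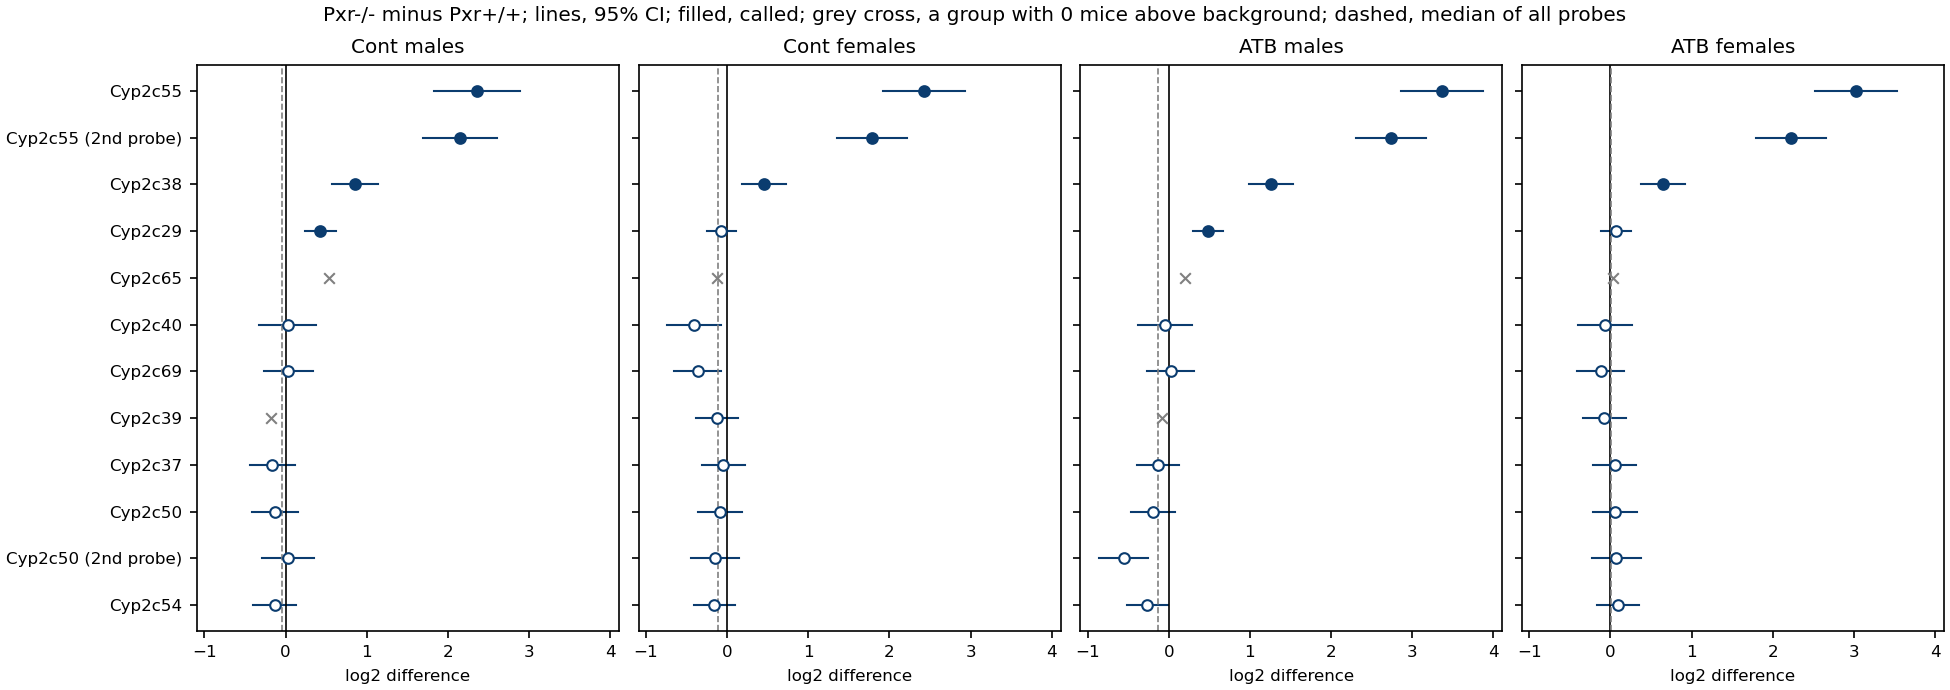
Log2 difference of Pxr-/- less Pxr+/+ mice (x axis) for the 12 Cyp2c probes (y axis), in Cont and ATB males and females (4 panels). Points are limma estimates, lines 95% confidence intervals, filled points called, grey crosses values with 0 mice above background in a group, and the dashed line the median of all probes tested. Both Cyp2c55 probes lie between 1.78 and 3.37 in every panel.

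The other 6 members were not called between genotypes in any of the 4 pairs. Cyp2c37, which hydroxylates arachidonic acid, differed by -0.16 to 0.06, and Cyp2c39, a retinoic acid hydroxylase, by -0.13 in Cont and -0.07 in ATB females, while in males it was above background in 1 of 6 Pxr+/+ ATB mice and in 0 mice of the other 3 groups. The largest of the differences that were not called lay in a probe of Cyp2c50, and in Cyp2c40 and Cyp2c69. For the dimmer Cyp2c50 probe ATB males had 9.87, 10.02 and 10.16 (lowest, median and highest) in Pxr+/+ and 9.15, 9.48 and 9.85 in Pxr-/- mice, without overlap, a difference of -0.55 (CI -0.85 to -0.25, adjusted p = 0.0573). The brighter Cyp2c50 probe gave -0.20 in the same mice (CI -0.47 to 0.07). In Cont females Cyp2c40 differed by -0.41 (CI -0.74 to -0.08, adjusted p = 0.148) and Cyp2c69 by -0.36 (CI -0.65 to -0.08, adjusted p = 0.138), where the median of all probes was -0.11.

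In Cont females, markers of macrophages and sinusoidal endothelial cells moved with the genotype. Of 13 macrophage markers, 8 were called lower in Pxr-/- mice, with a summed level between 14.64 and 15.25 against 15.51 to 16.51 in Pxr+/+ mice, and 4 of 6 sinusoidal endothelial markers were called lower (13.26 to 13.99 against 14.01 to 14.58). Of all genes, 3.85% were called lower in this pair, or 0.768% with quantile normalization. B cell, stellate and cholangiocyte markers had 0 calls by genotype. The part of macrophages and endothelial cells in the Cyp2c55 and Cyp2c38 differences was not tested. In Cont males 0 of the hepatocyte, macrophage and sinusoidal endothelial markers were called by limma, but the summed macrophage level was 13.81, 14.22 and 14.85 (lowest, median and highest) in Pxr-/- against 14.57, 14.88 and 15.02 in Pxr+/+ mice. In ATB males, also with 0 calls, it was 13.83, 14.60 and 16.45 against 13.88, 14.60 and 15.14, and in ATB females, again with 0, 14.40, 14.82 and 15.36 against 14.33, 15.34 and 16.04. In bulk liver, fewer cells of a type and less RNA per cell cannot be told apart. Of 8 enterocyte markers 3 were tested (Vil1, Lgals4 and Fabp2) and 0 of these were called by genotype or ATB. At most 4.09% of all genes were called in any of the genotype or ATB comparisons, so a count of 0 says little. Lct and Muc2 were above background on 0 arrays, Sis and Cdh17 on 1 and Alpi on 2.

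With ATB, Cyp2c55 and Cyp2c38 fell in Pxr+/+ males, and no member was called in the other 3 strata. In these males 2 of 10 members were called lower with ATB, where 0.192% of all genes were called lower, and 0 higher, where 1.13% were. With quantile normalization the shares of all genes turned around, to 0.923% lower and 0.498% higher. Cyp2c55 had 7.58, 8.21 and 8.49 (lowest, median and highest) in Pxr+/+ Cont and 6.77, 7.04 and 7.46 in Pxr+/+ ATB males, so that all ATB mice lay below all Cont mice. The difference was -1.08 (CI -1.58 to -0.57, adjusted p = 0.0216), a 2.11-fold change, and it was lower with ATB on 6 of 6 slides. The dimmer Cyp2c55 probe gave -0.68 (CI -1.11 to -0.25, adjusted p = 0.093), also without overlap and not called. Cyp2c38 had 14.40, 14.55 and 14.88 in Cont and 13.80, 14.13 and 14.25 in ATB males, a difference of -0.53 (CI -0.81 to -0.26, adjusted p = 0.0361), lower on 6 of 6 slides. Cyp2c55 lost its call when any of 4 mice was left out (adjusted p between 0.0512 and 0.0591) and Cyp2c38 when any of 8 was (0.0548 to 0.110).

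In the other 3 strata 0 members were called with ATB by limma, where 0.11% (Pxr-/- males), 0.0183% (Pxr+/+ females) and 0.0411% (Pxr-/- females) of all genes were called in either direction. By any of their probes, 2, 2 and 6 of 10 members had an unadjusted p under 0.05. The shares of all probes, counted by probe and not by gene, were 6.72%, 10.4% and 11.9%. In Pxr-/- females 1 or 2 members were called higher under 5 other ways of processing. For Cyp2c55 the ATB difference was -0.07 in Pxr-/- males (CI -0.60 to 0.46), -0.41 in Pxr+/+ females (CI -0.91 to 0.09) and 0.19 in Pxr-/- females (CI -0.31 to 0.69). The difference between the genotypes in the ATB effect on Cyp2c55 in males was 1.01 (CI 0.28 to 1.74, unadjusted p = 0.00799, adjusted p = 0.843), which did not pass the test over all genes, and that between males and females of Pxr+/+ mice was -0.67 (CI -1.38 to 0.04). For Cyp2c38 the latter was -0.59 (CI -0.98 to -0.21, adjusted p = 0.273). These ATB comparisons use the same Cont and ATB groups as the genotype comparisons, so a low value in Pxr+/+ ATB males enters both.

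**Figure D3:**
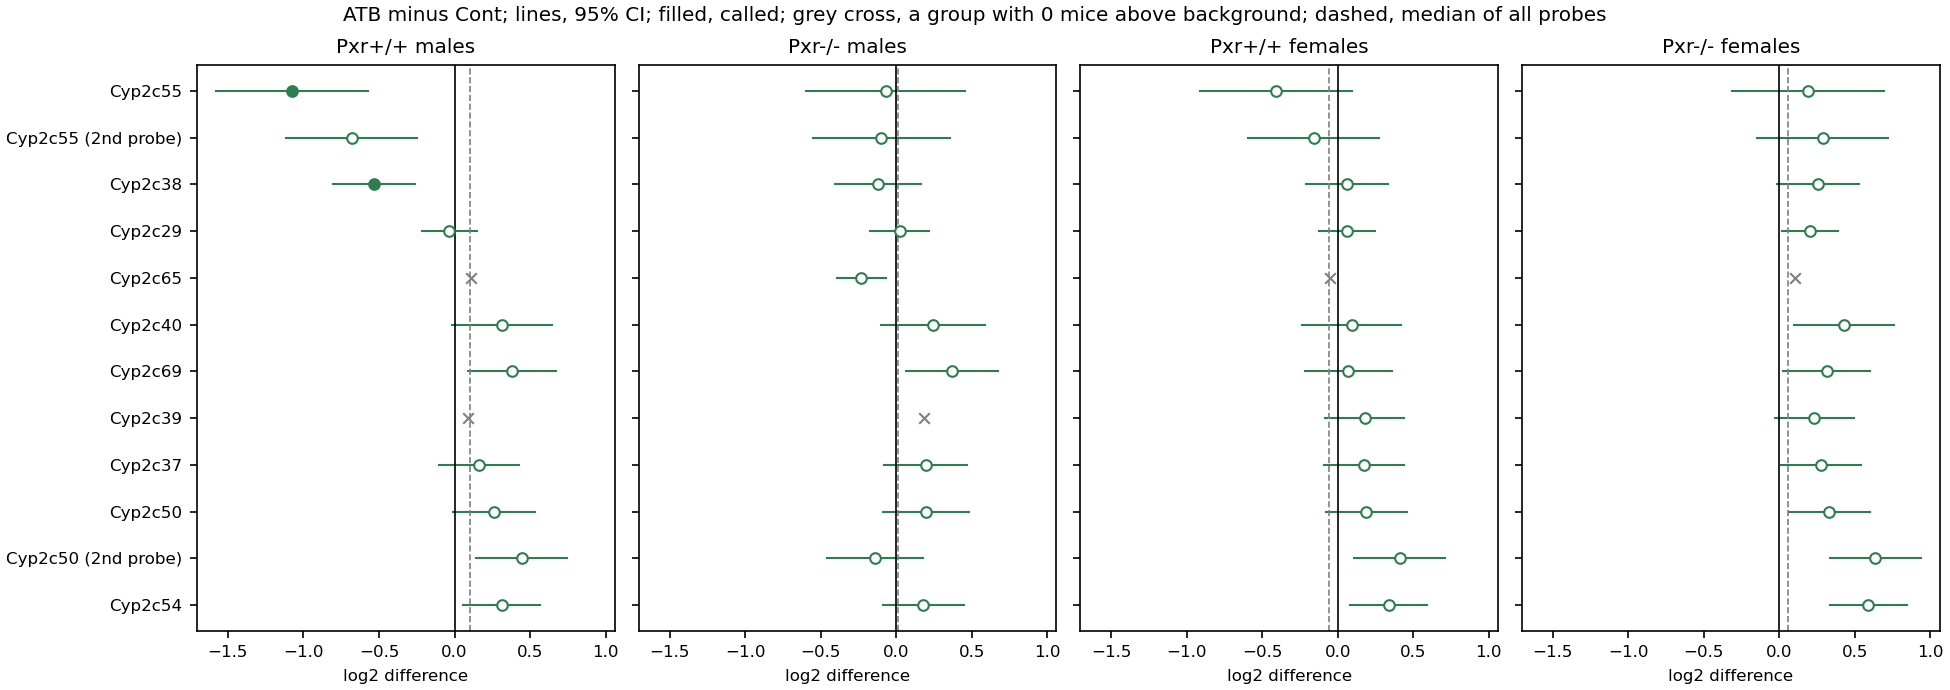
Log2 difference of ATB less Cont mice (x axis) for the 12 Cyp2c probes (y axis), in males and females of each genotype (4 panels), with 95% confidence intervals as lines, called probes filled, grey crosses for values with 0 mice above background in a group, and the median of all probes dashed. The filled points, Cyp2c55 at -1.08 and Cyp2c38 at -0.53, are both in Pxr+/+ males.

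Cyp2c54 and Cyp2c50, which oxidize arachidonic and linoleic acid, had positive ATB differences in at least 3 of the 4 strata, without a call. Cyp2c54 in Pxr-/- females had 15.09, 15.43 and 15.93 (lowest, median and highest) in Cont and 15.65, 16.12 and 16.27 in ATB mice, which overlapped, a difference of 0.59 (CI 0.33 to 0.84, adjusted p = 0.0509). In Pxr+/+ males the same gene had 15.38, 15.61 and 15.80 in Cont and 15.81, 15.93 and 16.03 in ATB mice, without overlap, a difference of 0.31 (CI 0.06 to 0.57, adjusted p = 0.187). The dimmer Cyp2c50 probe differed by 0.63 in Pxr-/- females (CI 0.33 to 0.94, adjusted p = 0.0662) and by 0.44 in Pxr+/+ males (CI 0.14 to 0.75, adjusted p = 0.116). The median ATB difference of the members was 0.14 in Pxr+/+ males, 0.18 in Pxr-/- males, 0.08 in Pxr+/+ females and 0.27 in Pxr-/- females, against 0.10, 0.01, -0.06 and 0.06 for all probes tested.

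More members were called by sex than by genotype or ATB, mostly lower in males. The counts include Cyp2c39 and Cyp2c65, whose direction the brightness filter fixed. In Pxr+/+ Cont mice 6 of 10 members were called lower in males, where 34.1% of all genes were called lower, and 0 higher, where 2.52% were. In Pxr-/- Cont mice 6 were called lower (15.9% of all genes) and 3 higher (2.88%), in Pxr+/+ ATB mice 6 lower (10.2%) and 0 higher (4.17%), and in Pxr-/- ATB mice 7 lower (27.4%) and 1 higher (2.88%). Cyp2c65, with 0 females above background, is 1 of the 3 and the 1 called higher. Cyp2c39, counted lower in all 4 strata, passed the brightness filter only through females, so its calls support nothing further. Apart from it, those called lower in Pxr+/+ Cont males were Cyp2c29, Cyp2c37, Cyp2c40, Cyp2c50 and Cyp2c69. Cyp2c50 counts in both directions in Pxr-/- Cont mice, lower by its brighter and higher by its dimmer probe. Whole arrays of males and females were shifted against each other: the median difference of all probes, males less females, was -0.20, -0.12, -0.03 and -0.18 in these 4 strata. With quantile normalization of all arrays, which removes such a shift, the shares of all genes were almost even, 9.22%, 7.08%, 9.13% and 7.32% lower and 9.04%, 7.69%, 8.02% and 7.96% higher in males. A small sex difference is therefore also given below after that normalization where it changed the call.

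Cyp2c69 and Cyp2c40, an arachidonic acid hydroxylase, differed most between the sexes. The Cyp2c69 probe had 14.02, 14.20 and 14.35 (lowest, median and highest) in Pxr+/+ Cont males and 16.57, 17.06 and 17.46 in Pxr+/+ Cont females. The Cyp2c40 probe had 11.66, 12.08 and 12.18 in the same males and 14.41, 14.66 and 15.29 in the same females. In both genes the lowest female lay far above the highest male, in all 4 strata. For Cyp2c69 the difference, males less females, was -2.83 in Pxr+/+ Cont (7.13-fold, adjusted p = 3.35e-20), -2.44 in Pxr-/- Cont, -2.52 in Pxr+/+ ATB and -2.38 in Pxr-/- ATB mice, and in Pxr+/+ Cont mice it was between -3.11 and -2.53 on the 6 slides. For Cyp2c40 it was -2.71 (6.56-fold, adjusted p = 2.01e-17), -2.28, -2.49 and -2.47 in the same order. Since the Cyp2c69 probe is listed for Cyp2c40 as well, these are not independent measures of 2 genes.

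Cyp2c39 had 5.25, 5.55 and 5.93 (lowest, median and highest) in Pxr+/+ Cont females and was well above background in 0 of 6 Pxr+/+ Cont males. Cyp2c39 was tested only because of the females, so its sex calls are a description of those mice. It was at least 1.90-fold higher in females than in males among Pxr+/+ Cont, at least 1.81-fold among Pxr-/- Cont and at least 2.11-fold among Pxr-/- ATB mice. In Pxr+/+ ATB mice 1 of 6 males was above background, and the difference was -1.16 (CI -1.42 to -0.90, adjusted p = 3.75e-09). Cyp2c29 was lower in males by -0.92, -0.42, -1.01 and -0.60 and Cyp2c37 by -0.54, -0.65, -0.55 and -0.74 in Pxr+/+ Cont, Pxr-/- Cont, Pxr+/+ ATB and Pxr-/- ATB mice. All 8 of these differences were called, with no overlap between the sexes. Of all genes, 34.1%, 15.9%, 10.2% and 27.4% were called lower in males in these strata. The share of all genes without overlap was not counted. The scanner's processed signal, scaled by its 75th percentile, ended the calls of Cyp2c29 in Pxr-/- Cont (-0.23, adjusted p = 0.084) and of Cyp2c37 in Pxr+/+ Cont mice (-0.24, adjusted p = 0.205). The smaller Cyp2c29 difference in Pxr-/- mice is the same quantity as the difference between the sexes in the genotype effect, which did not pass the test over all genes.

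**Figure D4:**
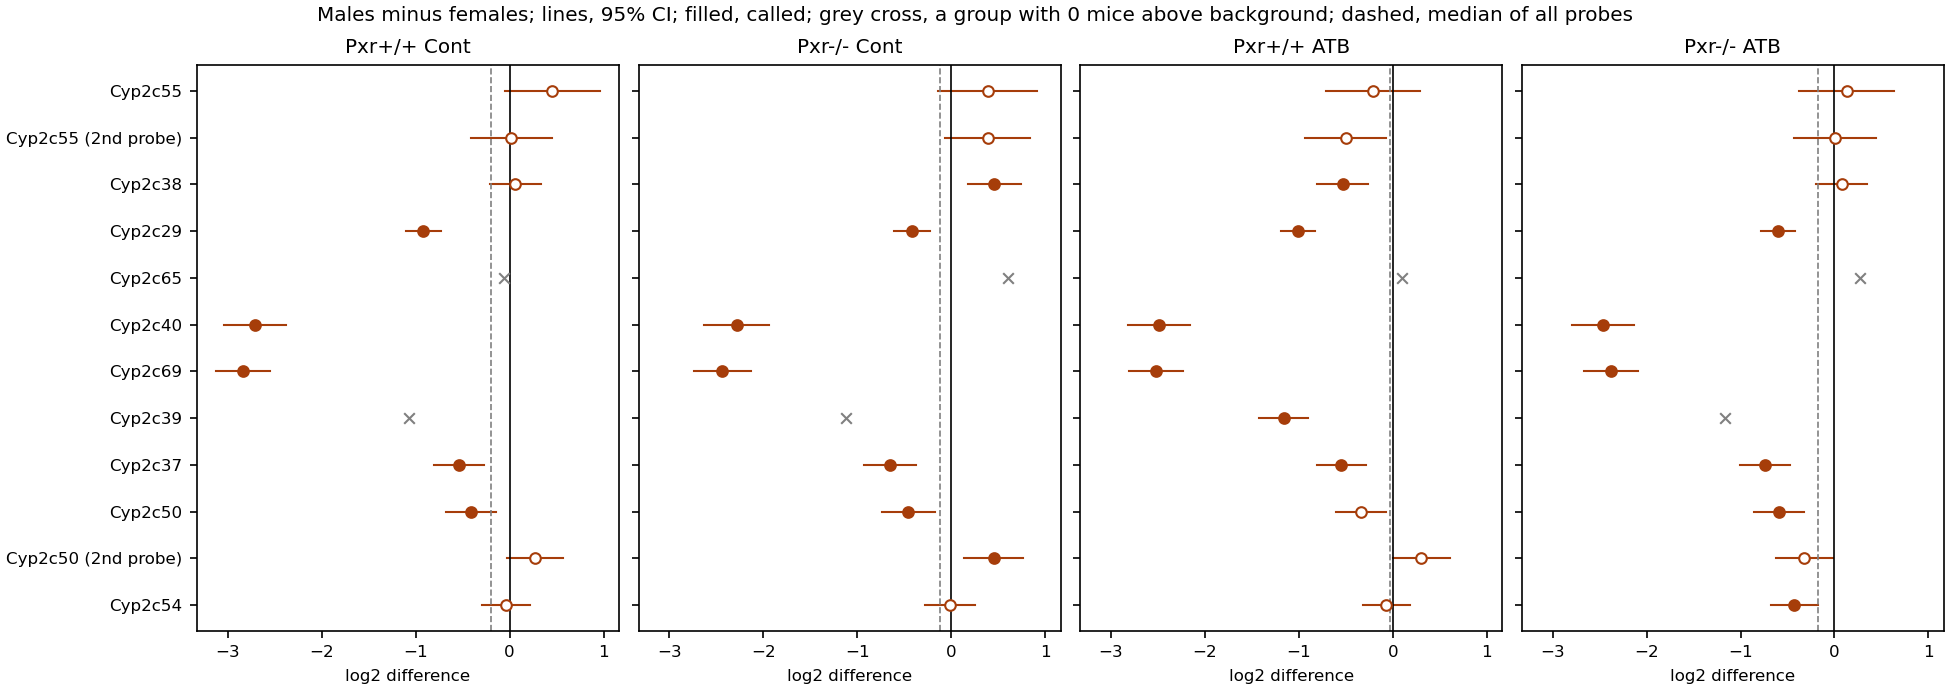
Log2 difference of males less females (x axis) for the 12 Cyp2c probes (y axis), in the 4 combinations of genotype and treatment (panels), with 95% confidence intervals as lines, called probes filled, grey crosses for values with 0 mice above background in a group, and the median of all probes dashed. Cyp2c40 and Cyp2c69 lie between -2.83 and -2.28 in every panel, and both Cyp2c55 probes are open.

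Cyp2c55, the member with the largest genotype difference, was not called between the sexes, with 0.46 (CI -0.05 to 0.96) in Pxr+/+ Cont, 0.39 in Pxr-/- Cont, -0.21 in Pxr+/+ ATB and 0.13 in Pxr-/- ATB mice. After quantile normalization the first of these was 0.72 and called (adjusted p = 0.0358). Cyp2c38 was higher in Pxr-/- Cont males than in females by 0.46 (adjusted p = 0.0219) and lower in Pxr+/+ ATB males by -0.53 (adjusted p = 0.00521), with overlap in both. For Cyp2c50 the pair of probes differed in sign: the brighter gave -0.41, -0.46, -0.34 and -0.59, called in all strata except Pxr+/+ ATB, and the dimmer 0.27, 0.45, 0.30 and -0.32, called higher in Pxr-/- Cont males (adjusted p = 0.0431). The call of the dimmer probe was lost when any of 8 mice was left out (adjusted p of limma between 0.0516 and 0.139). After quantile normalization the brighter probe was no longer called in Pxr+/+ Cont (-0.27, adjusted p = 0.119) and Pxr-/- Cont mice (-0.32, adjusted p = 0.0829), and the dimmer was called higher in Pxr+/+ Cont males as well (0.52, adjusted p = 0.00732). Cyp2c54 was called lower in males in Pxr-/- ATB mice (-0.43, adjusted p = 0.011), a call that quantile normalization ended (-0.29, adjusted p = 0.107). The processed signal ended it too (-0.14, adjusted p = 0.494), and likewise those of the brighter Cyp2c50 probe in Pxr+/+ Cont (-0.10, adjusted p = 0.617) and Pxr-/- Cont mice (-0.27, adjusted p = 0.176).

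All 10 genes lie in a cluster on chromosome 19, where the 12 probes span 1078.2 kb in mm9. The order from the first Cyp2c55 probe is Cyp2c55, Cyp2c65 (58.3 kb), Cyp2c29 (293.6 kb), Cyp2c38 (355.4 kb), Cyp2c39 (532.9 kb), Cyp2c40 (759.1 kb), Cyp2c69 (807.3 kb), Cyp2c37 (976.4 kb), Cyp2c54 (1002.5 kb) and Cyp2c50 (1056.5 and 1078.1 kb). In Cont males the 3 members measured in both genotypes and called higher in Pxr-/- mice lie within the first 355.4 kb, and the 6 from Cyp2c39 on were not called. Cyp2c39 itself was above background in 0 Cont males of either genotype, so it was not measured in this comparison. The largest sex differences lay between 573.4 and 807.3 kb, a stretch that also holds Cyp2c67 and Cyp2c68. Probes of this stretch are listed for transcripts of one another, so they may not be separate measures of neighboring genes.

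**Figure D5:**
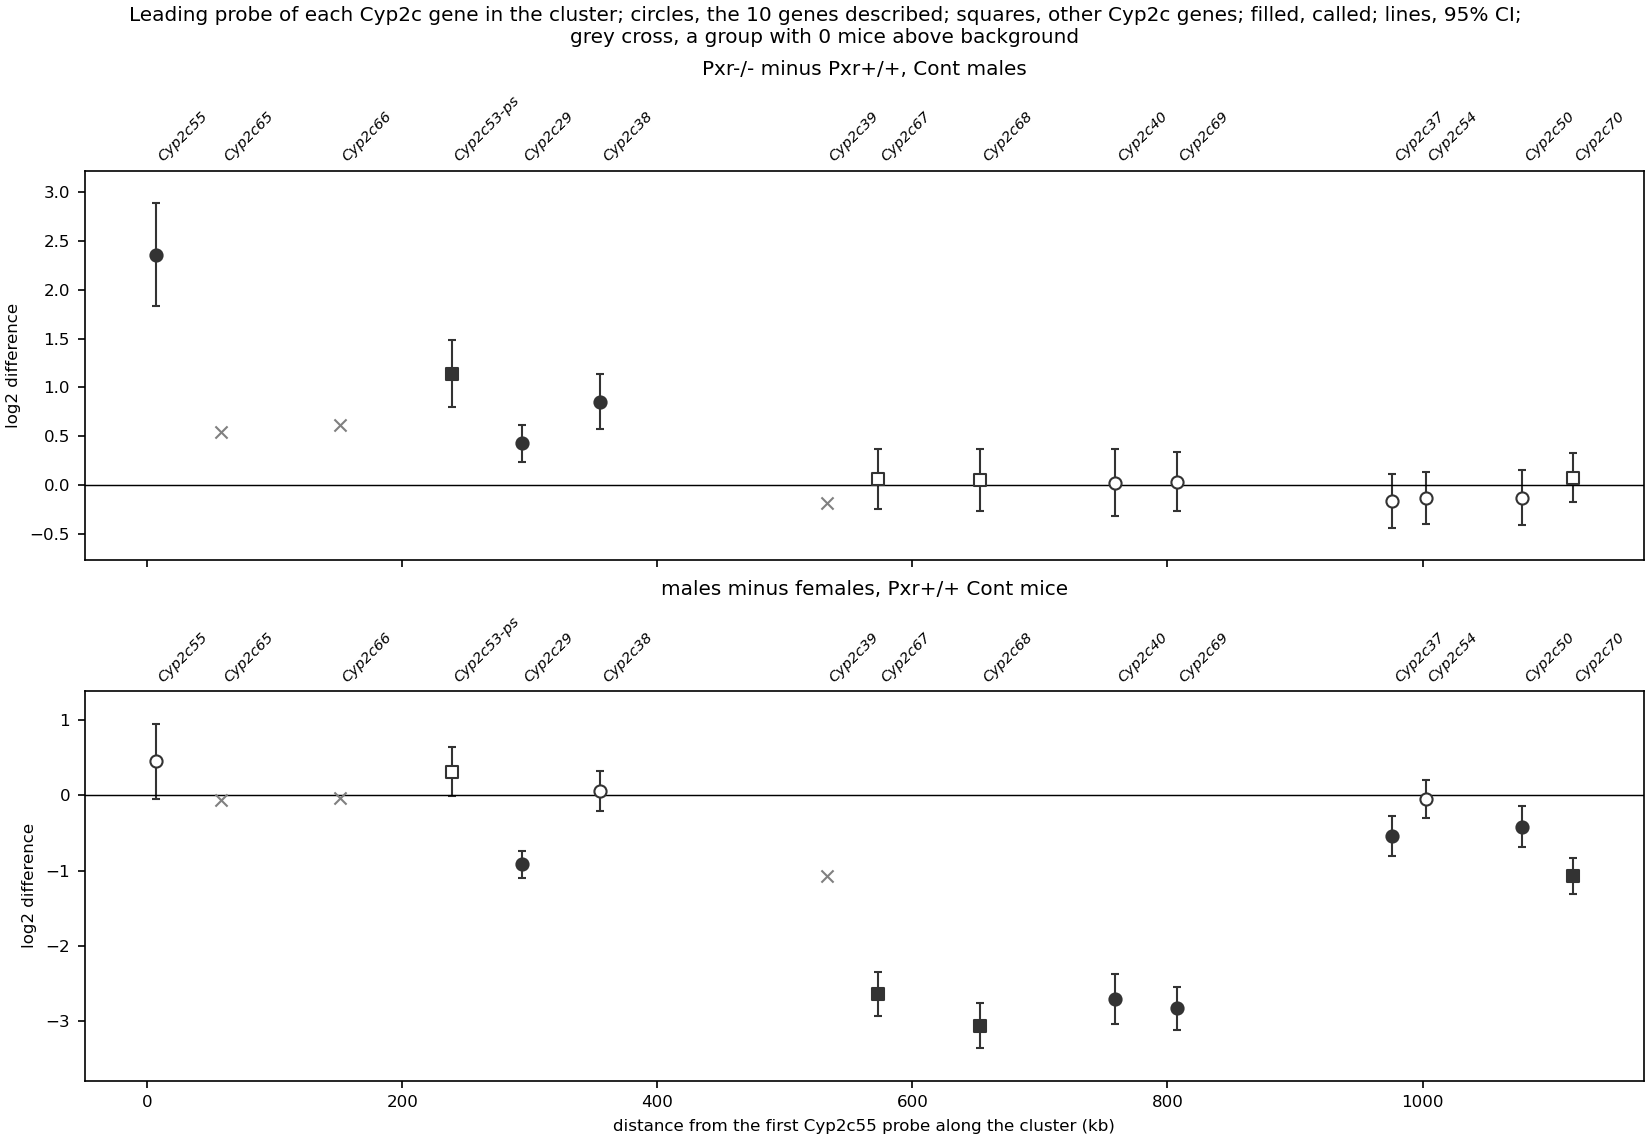
Log2 difference (y axis) of the brighter probe of each Cyp2c gene against its distance in kb from the first Cyp2c55 probe (x axis), above for Pxr-/- less Pxr+/+ Cont males and below for males less females of Pxr+/+ Cont mice. Circles are the 10 genes described, squares other Cyp2c genes, filled symbols called, lines 95% confidence intervals, and grey crosses values with 0 mice above background in a group. In the upper panel filled symbols lie at 355.4 kb or less, and in the lower panel the lowest points are Cyp2c67, Cyp2c68, Cyp2c40 and Cyp2c69, whose probes may report transcripts of one another.

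Other Cyp2c genes on the array bear on this order, and 6 of 8 were tested. Cyp2c53-ps, a pseudogene at 239.0 kb, between Cyp2c65 and Cyp2c29, had 5.79, 6.14 and 6.47 (lowest, median and highest) in Pxr+/+ Cont males and 7.03, 7.37 and 7.58 in Pxr-/- Cont males. It was higher in Pxr-/- mice by 1.14 in Cont males (CI 0.80 to 1.49, adjusted p = 0.000106) and 1.07 in ATB males (adjusted p = 6.73e-05), against -0.15 and 0.12 in Cont and ATB females. The difference between the sexes in this effect was 1.29 in Cont mice (CI 0.81 to 1.77, adjusted p = 0.0162). Cyp2c66 (151.1 kb) was at least 1.40-fold higher in Pxr-/- than in Pxr+/+ Cont males (adjusted p = 0.000134), but like Cyp2c65 it was tested only through those Pxr-/- males, and its probe is also listed for Cyp2c65. Cyp2c70 (1117.9 kb), which makes muricholic acids in rodents, had 14.95, 15.29 and 15.42 in Pxr+/+ Cont males and 15.86, 15.99 and 16.30 in Pxr+/+ ATB males. Its rise with ATB was 0.79 in Pxr+/+ males (adjusted p = 0.000113) and 0.63 in Pxr-/- males (adjusted p = 0.0192), and it was not called in females. Cyp2c67 and Cyp2c68, whose probes match in 55 of 59 overlapping bases, were lower in males by -2.64 and -3.07 in Pxr+/+ Cont mice. The Cyp2c68 probe is also listed for Cyp2c40 and Cyp2c69. Cyp2c23, far from the cluster at 4969.5 kb, was not called by genotype or ATB.

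Promoter sequence was compared for the genes that separated most by genotype and by sex. RefSeq windows of build GRCm38.p6, from 250 bases before to 50 bases after the gene start, were at hand for 9 of the 10 genes and gave 10 windows. For each gene shown, the 150 bases before the start are printed 5′ to 3′ on the gene's strand, with capitals for matches to the motifs searched.
Cyp2c55 (chr19:39006790-39006939, + strand): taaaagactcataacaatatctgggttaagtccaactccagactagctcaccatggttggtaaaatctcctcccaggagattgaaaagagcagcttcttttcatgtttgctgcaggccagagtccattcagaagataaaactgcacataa
Cyp2c38 (chr19:39463104-39463253, - strand): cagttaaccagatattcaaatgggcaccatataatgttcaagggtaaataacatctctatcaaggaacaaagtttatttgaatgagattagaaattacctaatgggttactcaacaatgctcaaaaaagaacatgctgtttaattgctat
Cyp2c40 (chr19:39812815-39812964, - strand): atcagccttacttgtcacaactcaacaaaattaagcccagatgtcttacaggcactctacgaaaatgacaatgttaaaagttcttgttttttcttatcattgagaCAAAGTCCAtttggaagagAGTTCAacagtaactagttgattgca
Cyp2c69 (chr19:39886770-39886919, - strand): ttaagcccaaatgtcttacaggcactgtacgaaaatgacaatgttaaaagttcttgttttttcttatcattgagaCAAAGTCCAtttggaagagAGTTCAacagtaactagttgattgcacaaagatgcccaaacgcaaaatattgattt
The Cyp2c40 and Cyp2c69 windows were identical in 267 of 270 overlapping bases (98.9%), the closest of all pairs compared. Both strands of the whole windows were searched for the short nuclear receptor motifs AGGTCA and AGTTCA, for AGTTCA paired as PXR is known to bind it (direct repeats with 3 or 4 bases between, and an everted repeat with 6), for the STAT5 core TTCNNNGAA, and for CAAAGTCCA, an HNF4A type of site that was chosen after the windows were seen. AGGTCA was in the windows of Cyp2c29 and Cyp2c39 (16.26% of 32851 promoters held it), AGTTCA in those of Cyp2c39, Cyp2c40, Cyp2c50 and Cyp2c69 (13.99%), and CAAAGTCCA in those of Cyp2c40, Cyp2c65 and Cyp2c69 (0.47%). The paired motifs contain AGTTCA, and none of them matched a member's window, nor did TTCNNNGAA (8.3% of all promoters). No match says only that these letters are not in these windows.

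Genes that supply or use the same reaction were followed by lists. Of 7 genes for electron supply and heme, 3 other arachidonic acid epoxygenases of the Cyp2j genes and 2 epoxide hydrolases, all tested, 0 were called between genotypes by limma in any pair. Of all genes, 0.192% were called in Cont males, 4.09% in Cont females, 1.18% in ATB males and 0.229% in ATB females. With so few genes in the lists, a count of 0 beside these shares says little. Por, which passes electrons to every microsomal P450, had 13.14, 13.83 and 14.46 (lowest, median and highest) in Pxr+/+ Cont males and 14.68, 14.95 and 15.67 in Pxr+/+ Cont females. It was lower in males by -1.19 (adjusted p = 0.000269), -1.36, -1.04 and -1.04 in Pxr+/+ Cont, Pxr-/- Cont, Pxr+/+ ATB and Pxr-/- ATB mice. Ephx2, which hydrolyzes epoxyeicosatrienoic acids, was higher in males by 0.58, 0.53, 0.54 and 0.29 in the same order, all called. Ephx1, the microsomal hydrolase, differed with ATB by -0.70 in Pxr+/+ males (adjusted p = 0.0312, called), -0.63 in Pxr-/- males (adjusted p = 0.291), -0.70 in Pxr+/+ females (adjusted p = 0.17) and -0.58 in Pxr-/- females (adjusted p = 0.139).

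Among 15 receptors and factors, 1 was called between genotypes in Cont males and 0 in females of either treatment. Of all genes, 0.192% were called in Cont males, 4.09% in Cont females and 0.229% in ATB females. Esr1, an estrogen receptor, was higher in Pxr-/- Cont males by 0.72 (adjusted p = 0.0241). In ATB males a dimmer probe of Nr1i3, which encodes CAR, was lower in Pxr-/- mice by -0.62 (adjusted p = 0.0345). By sex 10 of the 15 were called lower in males of Pxr+/+ Cont mice (34.1% of all genes were), 5 of Pxr-/- Cont (15.9%), 5 of Pxr+/+ ATB (10.2%) and 10 of Pxr-/- ATB mice (27.4%). Cux2, a female-biased factor under growth hormone control, had a mean of 9.46 in Pxr+/+ and 8.82 in Pxr-/- Cont females, against 4.85 and 4.91 in males, near the lowest signals above background, with 3 of 6 and 4 of 5 males above it. Bcl6, male-biased under the same control, was higher in Pxr+/+ Cont males by 1.30 (CI 0.25 to 2.35, adjusted p = 0.0486) and was called in no other stratum. By sex macrophage markers were called lower in males too, 12, 5, 6 and 0 of 13 in the same order (beside the same shares of all genes), with Csf1r also higher by another probe, and so were 5 of 7 T and NK cell markers in each stratum. The summed T and NK level was not lower in males, with medians of 13.39, 13.45, 13.79 and 13.70 against 13.36, 13.34, 13.56 and 13.47 in females. The part of these cell types in the sex differences of the Cyp2c genes was not tested.

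The pattern of each member over the 8 group means was set against 7198 other genes whose group means span a log2 range of at least 0.5. The correlations describe 8 points that share their arrays. For Cyp2c55 the most similar genes were Cyp3a57 (r = 0.98), Cyp3a25 (0.98) and 4931406C07Rik (0.98), and for Cyp2c38 they were 5033406O09Rik (0.95), Cyp3a57 (0.94) and Gm32872 (0.94). Cyp2c29 was most like Slc16a12 (0.98), Rapgef4 (0.98) and Cyp2a4 (0.97), and Cyp2c37 like Lect2 (1.00), Spp2 (0.99) and Msto1 (0.99). Cyp2c39, Cyp2c40 and Cyp2c69 all had Fam71e1 among their closest 3 (r = 1.00 in each), Cyp2c50 had Ces1g (0.99) and Cyp2c54 had Inca1 (0.98). Cyp2c39 lay near background in males and was tested only through females. Its pattern thus mostly sets female signal against background and supports nothing further. Cyp2c65 had AK224954 (0.99) and Plin1 (0.94) among its closest 3. Its probe was above background in Pxr-/- males only, so this pattern is mostly background and supports nothing further.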

How the data were processed

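The 1-color arrays carried liver RNA of 47 mice, with groups and wash batches taken from the sample labels and slides from the array identifiers. The deposited intensity of a spot is the median brightness of its pixels on a linear scale, which the authors read with Agilent Feature Extraction 10.10.1.1 (submitters' processing notes) and which has nothing subtracted. A second deposited table gives, for 33383 probes, log2 values after the authors' filter, their wash batch correction and CrossNorm.

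Here log2 of the median signal was taken, control spots and 422 spot values marked non-uniform were left out, and spots of a probe were averaged. Probes were tested if, in some group, 5 or more arrays had them well above background (32979 probes, 32794 of them among the authors' processed values). The wash batch effect was removed without touching the means of groups. CrossNorm was run by stacking arrays drawn at random, 1 per group, quantile normalizing the stacks and averaging 300 draws (60 for other filters), which leaves shifts between groups in place. The filter rule and the stacking are not stated in the study's methods and were chosen here. The authors' values differed from these by a median of 0.02 on the log2 scale.

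The limma package (3.58.1, R 4.3.3) fitted group and wash batch, with 1 spread per probe over all groups, contrasts for 12 comparisons between groups and 6 differences between effects, Benjamini-Hochberg adjustment over all probes tested, and calls where the adjusted p did not exceed 0.05 and the fold exceeded 1.2. The R package data.table (version 1.17.8), Python 3.11.15, numpy 2.4.6, pandas 2.3.3 and matplotlib 3.10.9 were also used. The fit was tested on simulated data. The brighter probe of a gene has the higher mean signal, and 1 called probe makes a gene called. Of the probes, 1535 were renamed through their accession. Across arrays the 75th percentile of the signal was 306 to 492.5, the local background 15 to 21, and 0 spots were saturated. No pair of arrays was identical (highest correlation 0.997), and 0 arrays went against their sex label.

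Named genes were all 10 members, the other Cyp2c genes, called genes of 4 lists (electron supply and heme, other epoxygenases, epoxide hydrolases, receptors and factors), and for each member the 3 genes with the closest pattern, of which 1 is given for some. Lists of cell markers (hepatocyte, macrophage, T and NK cell, B cell, neutrophil, sinusoidal endothelial, stellate, cholangiocyte, enterocyte) were written from general knowledge. By genotype or ATB 0 of the B cell, stellate and cholangiocyte markers were called, where at most 4.09% of all genes were. By sex 1, 5 and 0 of them were called lower in males of Pxr+/+ Cont mice, where 34.1% of all genes were. A result for a gene on the receptor list is not reported here. The members, lists and tests were chosen with earlier results of these data known. Alternatives were other normalizations and filters, the authors' values, a fit without the wash batch, blocks for slide or for replicate number, a fit on the 2 groups compared, and each mouse left out in turn.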

Additional observations from a re-analysis of the deposited data

Results flagged for a closer look

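In 96 groups of values (12 probes in 8 groups), 3 held a mouse that stood far from the others for the range of its group, where chance gives about 1 in 20 such groups. Cyp2c55 in Pxr-/- Cont male 4 was 10.59 with the brighter probe, where the next of the 5 mice was at 10.48 and the lowest at 10.44. Cyp2c54 in Pxr-/- ATB female 1 was 15.65, with the next at 16.06 and the highest at 16.27. Cyp2c38 in Pxr+/+ ATB female 5 was 14.06, with the next at 14.61 and the highest at 14.93.

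The genotype effect in Cont mice differed between the sexes, by a test of the difference itself, in the pseudogene Cyp2c53-ps of the same cluster, where it was larger in males by 1.29.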

How the results depend on the processing

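Of 47 called differences of a member probe, 0 reversed under any of 10 other settings or with any mouse left out. Over these calls, 945 of the recomputed values stayed called (435 settings, 510 left-out mice) and 77 kept their direction but lost the call (26 settings, 51 left-out mice). Both Cyp2c55 probes remained called between genotypes under each of these in all 4 pairs. The cause of a lost call was not tested, apart from fits with fewer arrays.

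In Cont males Cyp2c29 lost its genotype call with no filter on dim probes, without the wash batch and with only the 2 groups compared. The count of members called higher in Pxr-/- than in Pxr+/+ Cont females fell from 2 to 1 under the same 3 settings, and that in ATB females to 1 with only the 2 groups. With ATB in Pxr+/+ males, the count called lower fell from 2 to 1 with no filter, and 1 was called higher with only the 2 groups. With ATB in Pxr-/- females, the count called higher rose from 0 to 1 with normexp, with only probes above background on all arrays and with the slide as a block, and to 2 with the authors' values. By sex, the count called higher in Pxr+/+ Cont males rose from 0 to 2 with quantile normalization, 3 with the processed signal, 2 with normexp and 1 with the authors' values, and in Pxr+/+ ATB males to 2 with the processed signal. In Pxr-/- Cont males it fell from 3 to 1 with only the 2 groups, and in Pxr-/- ATB males from 1 to 0 with normexp and with only probes above background on all arrays, where Cyp2c65 is not tested, so the called difference between effects also fell to 0.

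Replicate numbers did not pair the mice: deviations from the group means correlated by -0.03 between mice of the same number and 0.01 between others. With the replicate block, the ATB count in Pxr-/- females was 1 and the dimmer Cyp2c50 probe lost its sex call in Pxr-/- Cont mice (0.44, adjusted p = 0.0554), while no other call changed.

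With 1 mouse left out, the counts, Cyp2c65 included, ranged from 3 to 4 higher between genotypes in Cont males, 1 to 2 in Cont females, 3 to 3 in ATB males (0 to 1 lower, 1 without Pxr-/- ATB male 3 or 5) and 1 to 2 in ATB females. Cyp2c29 lost its call in Cont males without Pxr+/+ male 1, 3, 4, 5 or 6 or Pxr-/- male 2, 4 or 6 (difference 0.39 to 0.43). Cyp2c38 lost it in Cont females without Pxr+/+ female 2, 3, 4, 5 or 6 or Pxr-/- female 2, 4, 5 or 6 (0.37 to 0.51), and in ATB females without Pxr-/- female 2 or 6 or Pxr+/+ female 5 (0.54 to 0.61). With ATB, 0 to 2 members were called lower in Pxr+/+ males: 0 without Cont male 3 or ATB male 2, 5 or 6, and 1 without Cont male 2, 5 or 6 or ATB male 3. There Cyp2c55 lay between -1.07 and -1.02 and Cyp2c38 between -0.56 and -0.47 where the call was lost. In Pxr-/- females 0 to 2 were called higher, 2 without ATB female 1 or Cont female 4 and 1 without Cont female 3. By sex, members called lower, Cyp2c39 included, ranged from 5 to 6 in Pxr+/+ Cont, 5 to 6 in Pxr-/- Cont, 6 to 8 in Pxr+/+ ATB and 7 to 7 in Pxr-/- ATB mice. Members called higher ranged from 1 to 3 in Pxr-/- Cont males, 1 without female 1 or male 2, and from 0 to 1 in Pxr-/- ATB males, 0 without male 1 or 2 or female 6, where Cyp2c65 fell below the fold of 1.2. The brighter Cyp2c50 probe lost its sex call without Pxr+/+ Cont female 4 (-0.31, adjusted p = 0.0714), and in Pxr-/- Cont mice without male 3 or 6 or female 4 or 6 (-0.44 to -0.35). The dimmer one lost its call in Pxr-/- Cont mice without female 1, 2, 3 or 5 or male 2, 3, 4 or 5 (0.32 to 0.48), and Cyp2c38 without female 1 or male 2 or 6 (0.38 to 0.41). The processed signal ended 5 sex calls, given beside them above.

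Cyp2c65 lay near background in all groups and Cyp2c39 in males, so where a group had 0 mice above background a difference is at best a bound.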
